A study of Mus musculus with 25 samples.

Results

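RNA of sorted CD4 T cells was measured for 6 listed genes of the interleukin-6 and interleukin-27 receptor pathway: the shared signalling subunit Il6st, the ligand-binding subunits Il6ra and Il27ra, the kinases Jak2 and Tyk2, and the transcription factor Stat3. They were found by matching the Ensembl gene IDs of the count table to mouse symbols, and all 6 were among its 46078 genes and among the 14703 genes with enough counts to be tested. The mice were C57BL/6NTac of 3 genotypes for miR-150, a microRNA found at high levels in resting lymphocytes. Cells were sorted 7 days after EAE was induced (experimental autoimmune encephalomyelitis, in which immunization against myelin models multiple sclerosis) or from naive mice. There were 4 libraries each of miR-150 knock-out cells at day 7, knock-out naive cells, knock-in cells at day 7 and knock-in naive cells, 5 of wild-type cells at day 7 and 4 of wild-type naive cells. The labels give no age, and the knock-in construct and the promoter that drives it are not described in the sources used here. The labels do not state that each library is another mouse, so the p-values below rest on the spread between libraries, and that spread may be technical.

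Interleukin-6 binds its alpha subunit, encoded by Il6ra, and this complex recruits gp130, the product of Il6st, which passes the signal into the cell. gp130 is shared by a family of cytokines, among them interleukin-27, whose receptor pairs gp130 with the product of Il27ra. Janus kinases bound to the receptor tails, including JAK2 and TYK2, phosphorylate STAT3, which moves to the nucleus and switches on genes such as Socs3, a feedback inhibitor of the same receptor. In CD4 T cells interleukin-6 is best known for driving Th17 differentiation and for being needed in EAE, and interleukin-27 for restraining such responses.

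Il6st lies at chr13:112464070-112510086 on the plus strand of mm10 (ENSMUSG00000021756). Il6ra lies at chr3:89864059-89913196 on the minus strand, Il27ra at chr8:84030294-84042589 on the minus strand and Stat3 at chr11:100885098-100939540 on the minus strand. Jak2 lies at chr19:29251828-29313080 on the plus strand and Tyk2 at chr9:21104068-21131243 on the minus strand. All 6 are annotated as protein-coding. The promoters of Il6st and Stat3 are shown because these were the members that passed the test at day 7. Stat3 did so only over the mean of the 3 genotypes, and close to the threshold. Each line gives 300 bases from RefSeq on GRCm38.p6, from 250 bases before the gene's start to 50 after it, at chr13:112463820-112464119 on the plus strand and chr11:100939491-100939790 on the minus strand. Capitals mark matches to CCAAT or GGGCGG, which do not overlap, in either direction.
Il6st: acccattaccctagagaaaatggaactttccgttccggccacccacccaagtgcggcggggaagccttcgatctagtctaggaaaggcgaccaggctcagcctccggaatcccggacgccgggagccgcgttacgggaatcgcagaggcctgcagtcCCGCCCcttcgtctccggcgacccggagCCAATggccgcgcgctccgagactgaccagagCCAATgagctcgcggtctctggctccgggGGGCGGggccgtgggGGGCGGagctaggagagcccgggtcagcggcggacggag
Stat3: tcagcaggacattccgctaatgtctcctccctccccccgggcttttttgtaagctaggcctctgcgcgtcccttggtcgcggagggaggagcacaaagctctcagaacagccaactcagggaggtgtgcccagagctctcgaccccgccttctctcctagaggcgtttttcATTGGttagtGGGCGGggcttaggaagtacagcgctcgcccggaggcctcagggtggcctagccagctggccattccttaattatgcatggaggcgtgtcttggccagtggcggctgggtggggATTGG
The Il6st window held 2 matches to CCAAT and 3 to GGGCGG, and the Stat3 window held 2 and 1. Of 32851 mouse promoter windows of the same length, 37.41% held CCAAT and 35.66% held GGGCGG. RefSeq windows were matched for 5 of the 6 members, with no entry for Il27ra. A STAT-type motif, TTCNNNGAA, was found on either strand in 8.298% of all windows and an AP-1 motif, TGANTCA, in 7.808%, and neither was found in the windows of these 5 members.

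Library totals lay between 6024043 and 49489134 counts (median 16312725), and the wild-type naive libraries were among the shallowest, with 6024043 to 9351180. Even so, the lowest count of any member in any library was 330. Mir150, the targeted gene, had no count in any knock-out library. In CPM, which sets a count against the TMM-scaled total of its library, it averaged 15.9 ± 9.22 CPM in knock-in cells at day 7, 14.3 ± 1.42 CPM in knock-in naive cells, 16.3 ± 5.57 CPM in wild-type cells at day 7 and 20.2 ± 4.86 CPM in wild-type naive cells (SD, n = 4, 4, 5 and 4), with overlapping ranges, and how the knock-in would show in the counts of this gene is not given in the sources used here. The 10 CD4 T cell markers summed to 2679 to 3029 CPM per library, and none was at 0 in any library. B cell markers summed to 139 to 203.6 CPM, mostly from Ighm, myeloid markers to 4.44 to 22.6 CPM and erythroid markers to at most 10.3 CPM. Markers of CD8, NK and gamma delta cells were low and differed between stages, as given below. Knock-out day 7 library 3, the deepest of all, stood apart, and values without it are given where they matter.

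Per kilobase of annotated exon, Il27ra had the highest level of the 6 genes, at 50.7 to 61.0 CPM per kb over the 25 libraries with a mean of 55.6. Il6st followed with 33.2 to 50.2 and a mean of 42.8 CPM per kb, and Il6ra with 26.6 to 32.3 and a mean of 29.1. Jak2 had 19.5 to 27.8 and Stat3 17.4 to 26.3 CPM per kb, with means of 22.9 and 20.9. Tyk2 was lowest, at 7.55 to 9.79 and a mean of 8.90 CPM per kb. The ranges of Il27ra, Il6st and Il6ra did not overlap, nor did that of Tyk2 with any other, whereas Jak2 overlapped both Il6ra and Stat3. Per gene, not per length, Il6st averaged 474.7 CPM, higher than 98.7% of the genes tested, and the lowest of the 6, Tyk2, averaged 61.1 CPM, higher than 81.6%.

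**Figure D1:**
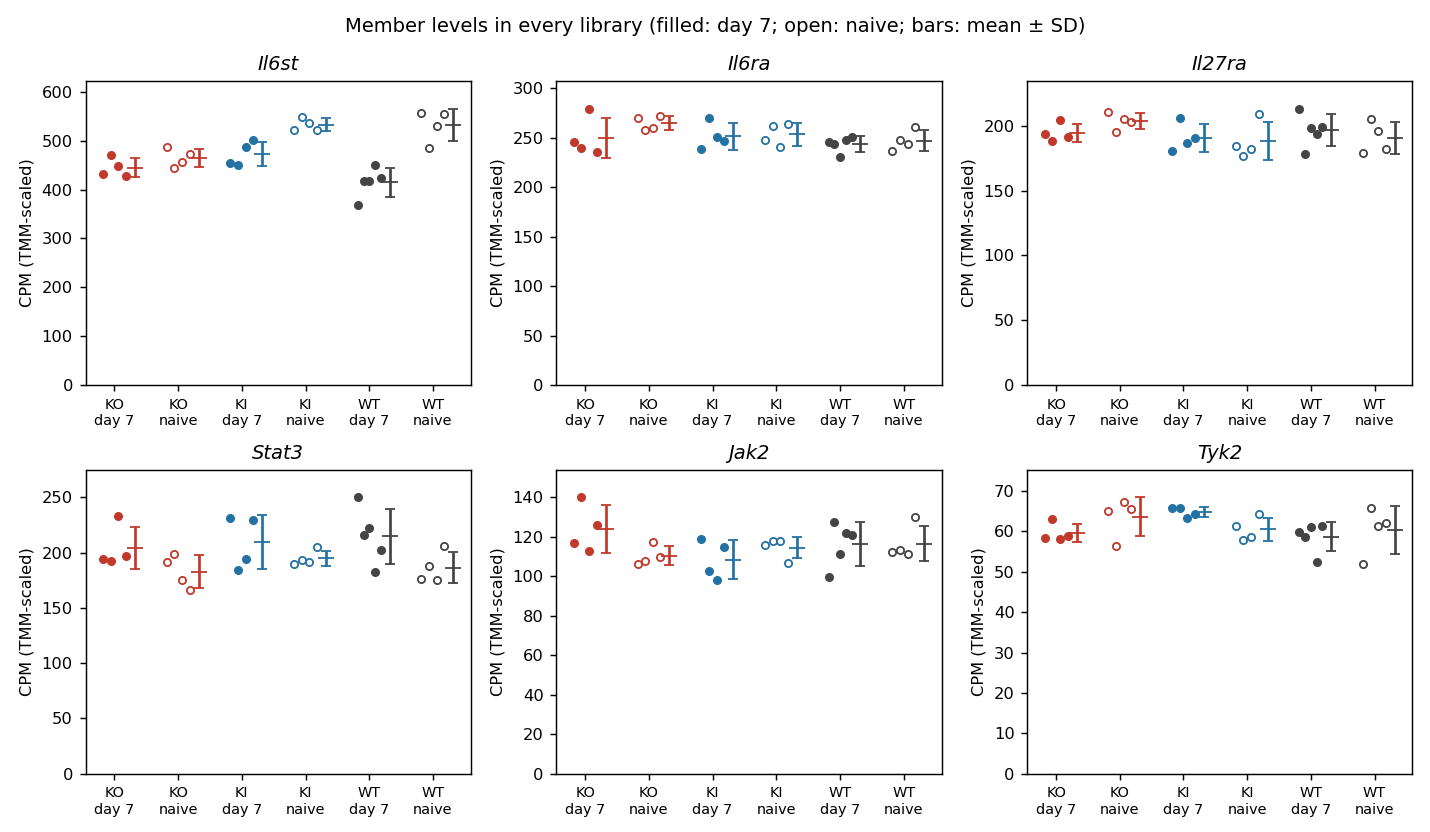
Level of each of the 6 genes in every library, in CPM scaled by TMM, by group; points are libraries and bars the group mean and SD. Il6st is lowest in wild-type cells at day 7 (368 to 449.6 CPM) and highest in the knock-in and wild-type naive groups, while the other genes' groups lie close together.

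Il6st RNA was lower at day 7 than in naive cells in wild-type mice, by 22.0%. In bulk samples, fewer cells of a type and less RNA per cell cannot be told apart. Il6st had 368, 417, 418, 449.6 and 424 CPM in the wild-type day 7 libraries, against 557, 485, 530.0 and 556 CPM in the wild-type naive libraries. Every day 7 library was below every naive one. The log2 fold change was -0.36 (SE 0.06, 95% interval -0.47 to -0.24), with an adjusted p of 0.000301 by edgeR's quasi-likelihood test. In this comparison 2.14% of the genes tested passed the threshold of 0.05 after Benjamini-Hochberg adjustment over all genes (0.966% as lower), and Il6st, the 1 member of 6 that did, ranked 33rd by p. In 5.86% of genes the groups did not overlap. The call held in all 18 alternatives, among them DESeq2, limma voom and leaving out each library in turn, with log2 fold changes of -0.40 to -0.31 and adjusted p-values of at most 0.0109.

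In knock-out cells Il6st had 432, 472, 449 and 427 CPM at day 7, against 486, 444, 456 and 474 CPM in naive cells. The groups overlapped, and their means differed by about the SD of either, at 445 ± 19.98 CPM at day 7 and 465 ± 18.9 CPM in naive cells (n = 4 each). The log2 fold change was -0.06 (SE 0.06, 95% interval -0.18 to 0.06, edgeR adjusted p = 0.700), in a comparison in which 0.408% of all genes were called and 5.07% had groups that did not overlap. With single libraries left out it was -0.09 (without day 7 library 2, adjusted p = 0.548) to -0.04 (without naive library 1, adjusted p = 0.869). In knock-in cells Il6st had 455, 450.0, 487 and 501 CPM at day 7, against 521, 549, 537 and 523 CPM in naive cells. These groups did not overlap, which was so for 11% of all genes. The log2 fold change was -0.17 (SE 0.06, 95% interval -0.29 to -0.05, unadjusted p = 0.00736) and did not pass the threshold, with an edgeR adjusted p of 0.133 where 2.02% of genes were called. With limma voom it did, at -0.16 and an adjusted p of 0.0476.

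Over the mean of the 3 genotypes, Il6st was lower at day 7 by 12.8% (log2 fold change -0.20, SE 0.03, edgeR adjusted p = 0.000233), and this call held in all 33 alternatives. In this comparison 11.2% of all genes were called, 5.06% as lower, so a call is less uncommon here than in wild-type cells alone. Summed markers of CD8, NK and gamma delta cells were also lower at day 7. They came to 21.6 to 30.2 CPM in knock-out cells at day 7 against 29.7 to 57.9 CPM in knock-out naive cells, 19.7 to 22.9 CPM in knock-in cells at day 7 against 26.3 to 34.5 CPM in knock-in naive cells, and 17.8 to 25.5 CPM in wild-type cells at day 7 against 29.5 to 40.7 CPM in wild-type naive cells. Of these 9 markers, 0 to 4 were at 0 in a library, and their part in the Il6st result was not tested. Nor was that of depth, which was lowest in the wild-type naive group. Mitochondrial, ribosomal RNA and haemoglobin genes took 17.2% to 21.8% of counts in knock-out, 17.8% to 20.6% in knock-in and 17.8% to 20.2% in wild-type libraries at day 7, against 17.0% to 18.5%, 16.6% to 17.9% and 15.8% to 19.0% in the naive libraries of each. With these genes left out, Il6st in wild-type cells stayed called, at -0.35 on the log2 scale.

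Ordered by mean, Il6st was highest in knock-in naive cells (532 ± 13.2 CPM) and wild-type naive cells (532 ± 33.5 CPM). Knock-in cells at day 7 (473 ± 24.6 CPM), knock-out naive cells and knock-out cells at day 7 followed, and wild-type cells at day 7 were lowest (415 ± 29.5 CPM, n = 5). Of the steps between neighbours in this order, 2 were larger than the larger of the 2 SDs: that between wild-type naive and knock-in day 7 cells (58.9 CPM) and that between knock-out day 7 and wild-type day 7 cells (30.0 CPM against an SD of 29.5).

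**Figure D2:**
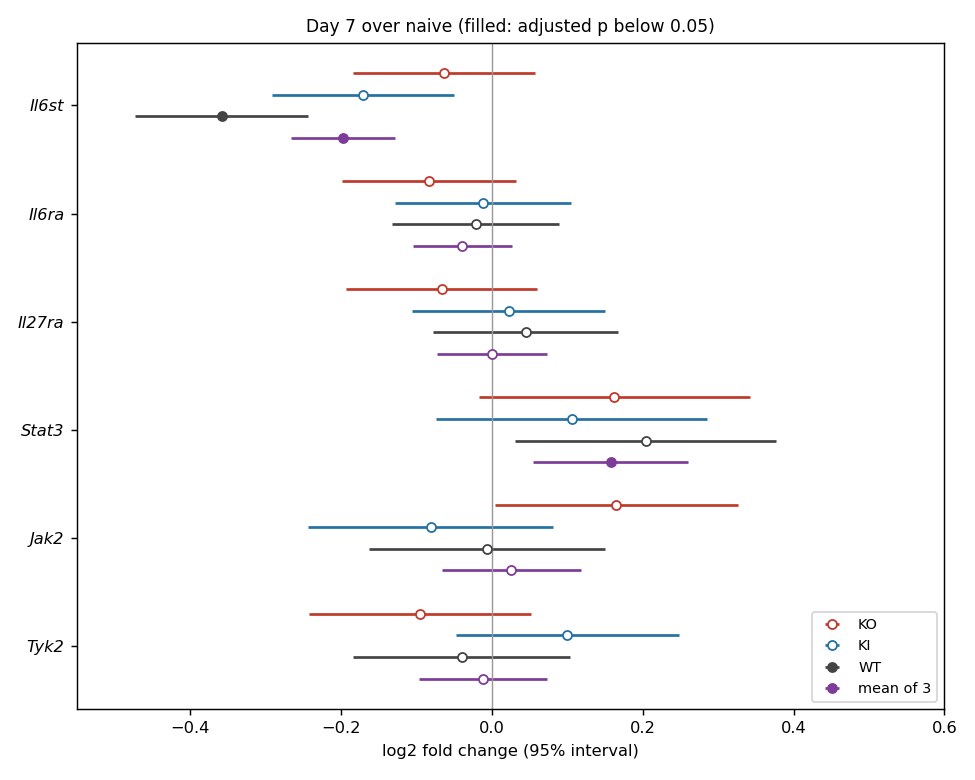
Log2 fold change of each gene at day 7 against naive in knock-out, knock-in and wild-type cells and over the mean of the 3 genotypes, with 95% intervals. For Il6st the wild-type interval (-0.47 to -0.24) lies wholly below 0, and that of knock-out cells (-0.18 to 0.06) spans it.

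The ligand-binding subunits did not pass the test at day 7 in any genotype. Il6ra, the interleukin-6 receptor alpha chain, averaged 249.7 ± 20.03 CPM in knock-out cells at day 7 and 265 ± 6.87 CPM in knock-out naive cells. It averaged 251 ± 13.3 CPM in knock-in cells at day 7 and 253 ± 11.3 CPM in knock-in naive cells, and 243 ± 7.84 CPM in wild-type cells at day 7 and 247 ± 10.3 CPM in wild-type naive cells. Its log2 fold changes were -0.08, -0.01 and -0.02, and the lowest bound of their 95% intervals was -0.20, in knock-out cells. Without knock-out day 7 library 3, the highest of all at 279 CPM, the knock-out value was -0.14 (adjusted p = 0.344). All 25 libraries lay between 230.3 and 279 CPM, and only the step between knock-out and knock-in naive cells, 11.5 CPM, exceeded the larger SD, 11.3 CPM. An antisense gene, Gm42809, shares 242 exon bases with Il6ra; it had 2856 counts over all libraries, and since the strand setting of the counting is not given, reads there cannot be told apart.

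Il27ra, the subunit that binds interleukin-27, lay between 177 and 213.2 CPM in all 25 libraries. It averaged 194 ± 6.89 CPM in knock-out cells at day 7 and 203.6 ± 6.39 CPM in knock-out naive cells, 191 ± 10.8 CPM in knock-in cells at day 7 and 188 ± 14.4 CPM in knock-in naive cells, and 197 ± 12.5 CPM in wild-type cells at day 7 and 191 ± 12.3 CPM in wild-type naive cells. Its log2 fold changes at day 7 were -0.07, 0.02 and 0.04, with edgeR adjusted p-values of 0.700, 0.924 and 0.796, and the 95% intervals together spanned -0.19 to 0.17. No step between neighbouring groups exceeded the larger SD. Il27ra shares 2 exon bases with Palm3.

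The kinases were not called at day 7 in any genotype. Jak2 was furthest from its naive level in knock-out cells, where it had 117, 140.0, 113 and 126 CPM at day 7, against 106, 108, 117 and 109.9 CPM in naive cells. The groups overlapped, since 2 day 7 libraries lay below the highest naive one. The log2 fold change was 0.16 (SE 0.08, 95% interval 0.00 to 0.33, unadjusted p = 0.0453, edgeR adjusted p = 0.377). With single libraries left out it was 0.10 (without day 7 library 2, adjusted p = 0.619) to 0.21 (without day 7 library 3, adjusted p = 0.351). In knock-in cells Jak2 averaged 108 ± 9.87 CPM at day 7 and 115 ± 5.33 CPM in naive cells, a log2 fold change of -0.08 (SE 0.08), and in wild-type cells it averaged 116 ± 10.97 CPM at day 7 and 117 ± 8.88 CPM in naive cells, a log2 fold change of -0.01 (SE 0.08). Tyk2 averaged 59.6 ± 2.31 CPM in knock-out cells at day 7 and 63.6 ± 4.83 CPM in knock-out naive cells. It averaged 64.8 ± 1.20 CPM in knock-in cells at day 7 and 60.5 ± 2.87 CPM in knock-in naive cells, and 58.7 ± 3.66 CPM in wild-type cells at day 7 and 60.2 ± 5.96 CPM in wild-type naive cells. Its log2 fold changes at day 7 were -0.10 (SE 0.07), 0.10 (SE 0.07) and -0.04 (SE 0.07), none past the threshold. The antisense gene 1700084C06Rik shares 554 exon bases with Tyk2 and had 371 counts in all.

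Stat3, the transcription factor of the pathway, had a mean above its naive group at day 7 in every genotype. It had 195, 193, 233 and 197 CPM in knock-out cells at day 7, against 192, 198, 175 and 166 CPM in knock-out naive cells. It had 231, 184, 194 and 229.7 CPM in knock-in cells at day 7, against 190.1, 194, 192 and 204.8 CPM in knock-in naive cells. It had 250.1, 216.1, 222.8, 183 and 202.2 CPM in wild-type cells at day 7, against 176, 188, 175.5 and 205.7 CPM in wild-type naive cells. The day 7 and naive groups overlapped in each genotype, with 1 or more day 7 libraries inside the naive range. The log2 fold changes were 0.16 (SE 0.09) in knock-out, 0.11 (SE 0.09) in knock-in and 0.20 (SE 0.08) in wild-type cells, with edgeR adjusted p-values of 0.448, 0.642 and 0.237. Over the mean of the 3 genotypes Stat3 rose at day 7 by 11.5% (log2 fold change 0.16, SE 0.05, 95% interval 0.06 to 0.26, edgeR adjusted p = 0.0392). In this comparison 11.2% of all genes were called, 6.16% as higher, and Stat3 ranked 1456th of 14703 by p.

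That call of Stat3 was close to the threshold. With the 4 libraries of neighbouring numbers as a block it did not pass (0.16, adjusted p = 0.0722), nor when any of 12 single libraries was left out, with log2 fold changes of 0.14 to 0.16. These were knock-out day 7 library 3 (adjusted p = 0.0731), knock-out naive libraries 3 and 4 (0.0539 and 0.0726), knock-in day 7 libraries 1 and 4 (0.0851 and 0.0741), knock-in naive libraries 1, 2 and 3 (0.0631, 0.0590 and 0.0627), wild-type day 7 library 1 (0.0539) and wild-type naive libraries 1, 2 and 3 (0.0723, 0.0541 and 0.0758). Stat3 shares 72 exon bases with its neighbour Stat5a, whose total count was 29500.

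Genotype was then compared within each stage, the question the series asks of miR-150. By edgeR none of the 24 tests of a member in knock-out or knock-in against wild-type cells passed the threshold, 3 had an unadjusted p below 0.05, and neither DESeq2 nor limma voom called any. Of all genes, edgeR called 0.0476% for knock-out and 0% for knock-in against wild-type at day 7, and 0.0204% and 0.0136% in naive cells. Groups did not overlap in 2.03% of genes for knock-out and 1.47% for knock-in against wild-type at day 7, and in 4.71% and 3.22% in naive cells, against 2 of the 24 tests of members, both for knock-in at day 7. For knock-in against wild-type at day 7 edgeR called no gene of 14703, with 684 at an unadjusted p below 0.05 and no call by DESeq2 or limma voom. The lowest adjusted p of any member was 0.405.

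Il6st gave 2 of these 3 low unadjusted p-values. In naive cells it averaged 465 ± 18.9 CPM in the knock-out and 532 ± 33.5 CPM in the wild-type (log2 fold change -0.19, SE 0.06, unadjusted p = 0.00272, edgeR adjusted p = 0.405). The groups overlapped, because wild-type naive library 2 (485 CPM) lay just below the highest knock-out library (486 CPM). At day 7 it averaged 473 ± 24.6 CPM in the knock-in and 415 ± 29.5 CPM in the wild-type (log2 fold change 0.19, SE 0.06, unadjusted p = 0.00216, edgeR adjusted p = 0.928). These groups only just failed to overlap, with 450.0 CPM as the lowest knock-in and 449.6 CPM as the highest wild-type value. Il6st in knock-out against wild-type cells at day 7 (0.10, 95% interval -0.01 to 0.21) and in knock-in against wild-type naive cells (0.00, 95% interval -0.12 to 0.12) did not pass either. The third low p was that of Tyk2, with 65.8, 65.7, 63.3 and 64.3 CPM in knock-in cells at day 7, against 59.7, 58.6, 61.2, 52.5 and 61.4 CPM in wild-type cells at day 7. All knock-in values were above all wild-type ones, with a log2 fold change of 0.14 (SE 0.07, unadjusted p = 0.0468, edgeR adjusted p = 0.999).

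Knock-out was also set directly against knock-in. In naive cells Il6st was lower in every knock-out library (444 to 486 CPM) than in every knock-in library (521 to 549 CPM), with a log2 fold change of -0.20 (SE 0.06, unadjusted p = 0.00255, edgeR adjusted p = 0.210). edgeR called 0.163% of all genes here and 6.98% had groups that did not overlap; limma voom called Il6st, at -0.21 and an adjusted p of 0.0434. At day 7 Jak2 averaged 124 ± 12.0 CPM in knock-out and 108 ± 9.87 CPM in knock-in cells (log2 fold change 0.19, SE 0.08, unadjusted p = 0.0232, edgeR adjusted p = 0.358). Tyk2 at day 7 had 58.2 to 63.1 CPM in knock-out and 63.3 to 65.8 CPM in knock-in cells, groups that did not overlap, with a log2 fold change of -0.12 (SE 0.07, edgeR adjusted p = 0.570). At day 7 0.374% of all genes were called and 4.84% had groups that did not overlap. Over all 36 genotype tests of the 6 members edgeR called none, with 5 at an unadjusted p below 0.05.

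**Figure D3:**
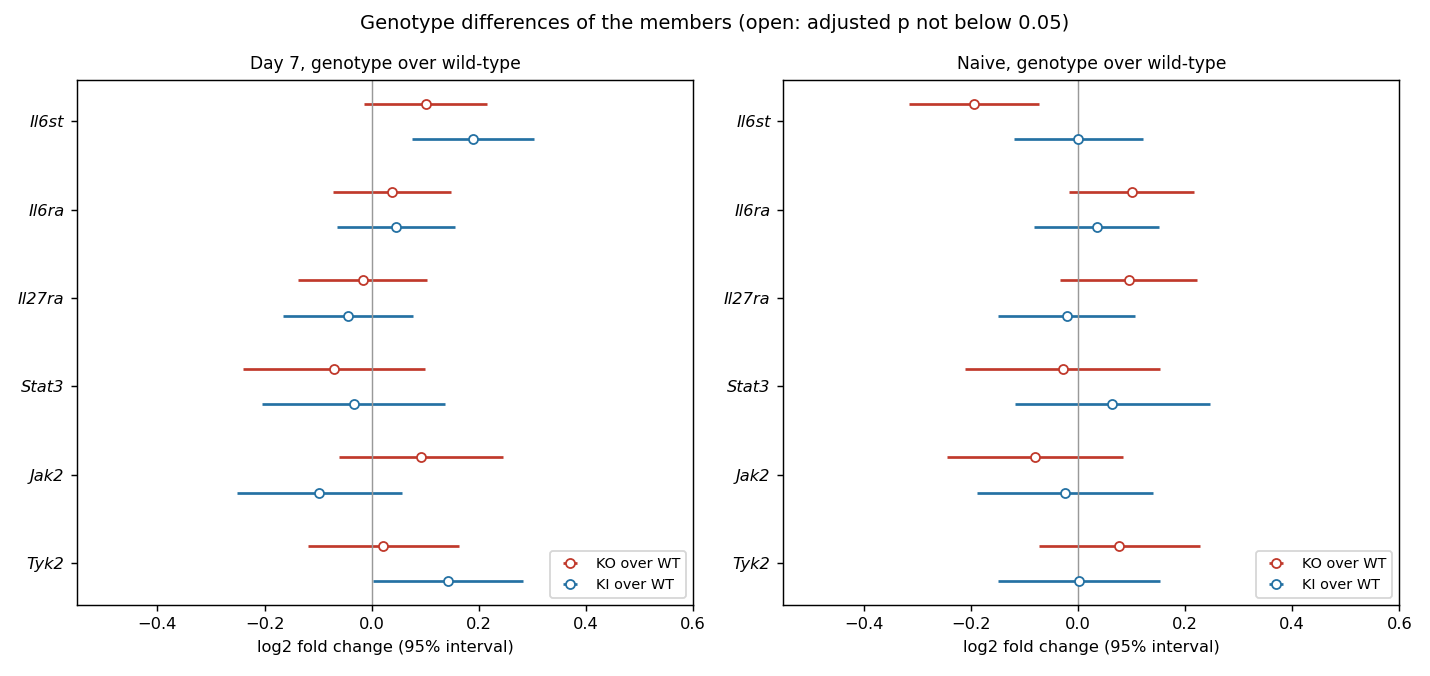
Log2 fold change of each gene in knock-out and in knock-in against wild-type cells, at day 7 and in naive cells, with 95% intervals. Il6st lies near -0.19 for knock-out against wild-type naive cells and near 0.19 for knock-in against wild-type cells at day 7, and no value passed the adjusted threshold.

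Whether the day 7 change differed by genotype was tested as an interaction. For Il6st the change in knock-out cells was less negative than in wild-type cells by 0.29 on the log2 scale (SE 0.08, 95% interval 0.13 to 0.46, unadjusted p = 0.00114), and it ranked 33rd of 14703 genes by p, but the edgeR adjusted p was 0.501. For knock-in against wild-type cells the difference was 0.19 (SE 0.08, 95% interval 0.02 to 0.35, unadjusted p = 0.0285, edgeR adjusted p = 0.999). So the call of Il6st in wild-type cells and its absence in the other genotypes do not show that the genotypes differed. None of the 12 interaction tests of members was called, and the other 10 gave log2 differences of -0.11 to 0.17. Of all genes edgeR called 0% in both interactions, with 1145 and 558 genes at an unadjusted p below 0.05; DESeq2 called 1 in each, and limma voom 0 and 2.

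Ratios of 2 members within a library do not depend on how libraries were scaled, and were computed per kilobase as a description, with no test. How often ratios of other gene pairs fail to overlap between groups was not computed, so the gaps below cannot be set against a share. Il6ra relative to Il6st was 0.721 ± 0.0604 in knock-out cells at day 7 and 0.731 ± 0.0143 in knock-out naive cells, ranges that overlapped. It was 0.683 ± 0.0598 in knock-in cells at day 7 and 0.611 ± 0.0306 in knock-in naive cells, and 0.756 ± 0.0614 in wild-type cells at day 7 and 0.598 ± 0.0451 in wild-type naive cells. In the wild-type the ratio was thus higher in every day 7 library (0.706 to 0.857) than in every naive one (0.544 to 0.654), while the knock-in groups overlapped. Il27ra relative to Il6st was 1.39 ± 0.0816 in knock-out cells at day 7 and 1.39 ± 0.0315 in knock-out naive cells, 1.28 ± 0.114 in knock-in cells at day 7 and 1.124 ± 0.107 in knock-in naive cells, and 1.51 ± 0.195 in wild-type cells at day 7 and 1.15 ± 0.149 in wild-type naive cells. Its wild-type groups did not overlap, with 1.36 as the lowest day 7 and 1.34 as the highest naive ratio. All ratios to Il6st, that of Stat3 below included, share this denominator. Il6st was itself lower in every wild-type day 7 library than in every naive one, so they are not separate observations.

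Stat3 relative to Il6st was 0.536 ± 0.0529 in knock-out cells at day 7 and 0.459 ± 0.0470 in knock-out naive cells, 0.517 ± 0.0589 in knock-in cells at day 7 and 0.427 ± 0.0204 in knock-in naive cells, and 0.609 ± 0.117 in wild-type cells at day 7 and 0.409 ± 0.0383 in wild-type naive cells. The day 7 and naive ratios did not overlap in knock-in and wild-type cells and overlapped in knock-out cells. Jak2 relative to Tyk2 was 2.65 to 3.03 in knock-out cells at day 7, against 2.23 to 2.61 in knock-out naive cells, and 2.11 to 2.46 in knock-in cells at day 7, against 2.27 to 2.78 in knock-in naive cells. The knock-out groups did not overlap, and the knock-out and knock-in groups at day 7 did not overlap either. Single genes did not overlap in 5.07% and 4.84% of cases in these comparisons, but the share for ratios was not computed and may differ. Neither kinase was called in these comparisons. In wild-type cells the ratio was 2.28 to 3.17 at day 7 and 2.35 to 2.96 in naive cells.

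**Figure D4:**
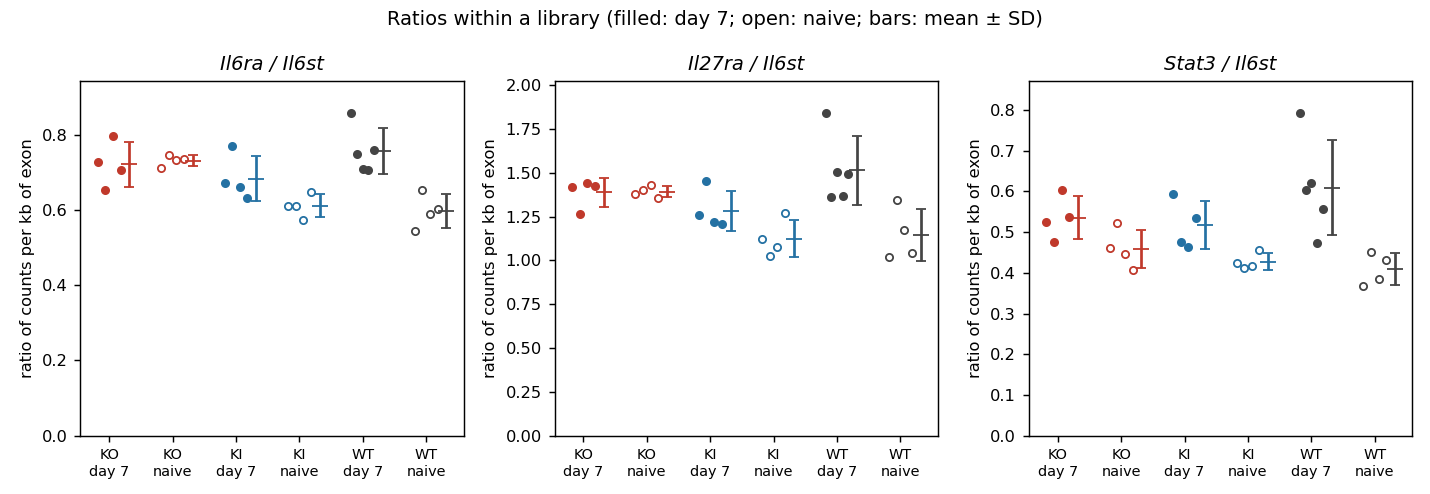
Ratios of Il6ra, Il27ra and Stat3 to Il6st, per kilobase, in every library by group; points are libraries and bars the group mean and SD. In wild-type cells each ratio is higher in all day 7 libraries than in all naive ones (Il6ra to Il6st 0.706 to 0.857 against 0.544 to 0.654). The ratios share Il6st as denominator, which was itself lower in all wild-type day 7 libraries.

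Related genes were read from lists of ligands, other receptors, other JAK and STAT genes, inhibitors and shedding enzymes, and STAT3-related target genes. The lists reach beyond the cytokines that share gp130, and hold genes of interleukin-10, interleukin-21 and interferon signalling, which does not use it. Of 16 listed ligands, 5 had enough counts to be tested and none was called at day 7 in any single genotype. There 0.408% of all genes were called in knock-out, 2.02% in knock-in and 2.14% in wild-type cells. Over the mean of the 3 genotypes, where 6.16% of all genes were called as higher and 5.06% as lower, 1 ligand was called, as higher. This was Il21, which encodes a cytokine of helper T cells (log2 fold change 3.34, SE 0.67, edgeR adjusted p = 0.00146). It was at low levels, 0 to 3.11 CPM in knock-out, 0.385 to 8.83 CPM in knock-in and 0.601 to 3.90 CPM in wild-type libraries at day 7, against 0 to 0.0899, 0 to 0.311 and 0.118 to 0.928 CPM in the naive libraries of each. These ranges overlapped in knock-out and wild-type cells, and limma voom did not call it (2.42, adjusted p = 0.0815). With so few naive counts Il21 could pass the count filter only with its day 7 libraries. Its higher level there was thus partly set by the filter. Il6, Ctf1 and Il31 had no count in any of the 25 libraries, Il27 had 3 counts in all and Il11 had 37. Clcf1, a ligand that signals through gp130 and LIFR, averaged 68.4 ± 9.99 CPM in knock-out cells at day 7 and 73.4 ± 2.96 CPM in knock-out naive cells. Its log2 fold changes at day 7 were -0.09 in knock-out, -0.09 in knock-in and 0.07 in wild-type cells (SE 0.10 each). The largest difference of Clcf1 from wild-type was that of knock-out naive cells (0.29, SE 0.10, edgeR adjusted p = 0.512). Osm, oncostatin M, averaged 9.02 ± 0.534 CPM in wild-type cells at day 7 and 9.02 ± 0.675 CPM in wild-type naive cells. Its log2 fold changes at day 7 were 0.02 in knock-out, 0.15 in knock-in and -0.01 in wild-type cells (SE 0.14 each).

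Of 15 other receptors listed, 11 were tested and none was called at day 7 in any single genotype. Over the mean of the 3 genotypes 2 were called as higher, where 6.16% of all genes were. Lifr and Osmr, which pair with gp130 for LIF and oncostatin M, had 145 and 7 counts in all 25 libraries and were not tested, and Cntfr had none. Il21r, the interleukin-21 receptor, had log2 fold changes at day 7 of 0.12 (SE 0.08) in knock-out, 0.22 (SE 0.08) in knock-in and 0.26 (SE 0.08) in wild-type cells, with edgeR adjusted p-values of 0.577, 0.177 and 0.0723. Over the mean it rose by 0.20 on the log2 scale (SE 0.05, edgeR adjusted p = 0.00500), a call that held in all 33 alternatives. Il23r, the interleukin-23 receptor, which is known from Th17 cells, was the other (1.54, SE 0.41, edgeR adjusted p = 0.0143), at a mean of 1.27 CPM. That call was lost without knock-in day 7 library 1 (1.17, adjusted p = 0.0590), with limma voom (1.15, adjusted p = 0.0580) and with neighbouring library numbers as a block (1.20, adjusted p = 0.0675).

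Of the 8 other JAK and STAT genes, Jak3, the kinase of the common gamma chain, rose at day 7 in knock-in cells, to 163 ± 22.3 CPM against 102 ± 4.41 CPM in naive cells (log2 fold change 0.68, SE 0.12, edgeR adjusted p = 0.00130). It rose likewise in wild-type cells, to 162 ± 33.5 CPM against 101 ± 11.7 CPM (0.68, SE 0.11, edgeR adjusted p = 0.000680). In knock-out cells Jak3 was not called, with 156 ± 16.0 CPM at day 7 and 112 ± 5.71 CPM in naive cells. No gene of this list was called when the day 7 change in knock-out cells was set against that in wild-type cells. The missing call of Jak3 thus does not show that these genotypes differed. Jak1, the JAK of the gp130 complex that is not among the 6 members, fell in knock-in cells, with 823 ± 24.96 CPM at day 7 and 945 ± 14.9 CPM in naive cells (log2 fold change -0.20, SE 0.04, edgeR adjusted p = 0.0113). That call was lost without knock-in day 7 library 1 (-0.18, adjusted p = 0.0703) and with no filter on low counts (-0.21, adjusted p = 0.0863). Over the mean of the 3 genotypes Jak3 rose (0.61, SE 0.07, edgeR adjusted p = 3.44e-07) and Jak1 fell (-0.13, SE 0.02, edgeR adjusted p = 0.000456), each in all 33 alternatives. In that comparison 6.16% of all genes were called as higher and 5.06% as lower.

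Of 14 inhibitors and shedding enzymes, Socs3, the feedback inhibitor that binds gp130, was the 1 called at day 7 in each genotype. Of all genes, 0.408% were called in knock-out, 2.02% in knock-in and 2.14% in wild-type cells. Socs3 averaged 80.2 ± 15.3 CPM in knock-out cells at day 7 and 33.1 ± 4.75 CPM in knock-out naive cells, 123 ± 39.4 CPM in knock-in cells at day 7 and 34.6 ± 2.57 CPM in knock-in naive cells, and 95.1 ± 43.7 CPM in wild-type cells at day 7 and 35.3 ± 4.07 CPM in wild-type naive cells. The lowest day 7 library, at 52.5 CPM, lay above the highest naive library, at 39.5 CPM. Log2 fold changes were 1.28 (SE 0.24, edgeR adjusted p = 0.00948), 1.82 (SE 0.24, adjusted p = 8.68e-05) and 1.44 (SE 0.24, adjusted p = 0.000753). In knock-out cells limma voom did not call it (1.24, adjusted p = 0.0580). The sheddases Adam10 and Adam17, which release soluble receptor, were not called in any genotype or over the mean. Over the mean of the 3 genotypes 2 genes of this list were called as higher, Socs3 and Socs1, and 2 as lower, Pias1 and Ptpn2. Of all genes, 6.16% were called as higher and 5.06% as lower in that comparison. Socs1, another feedback inhibitor, rose by 0.43 on the log2 scale (SE 0.12, edgeR adjusted p = 0.0155) and was called in all 33 alternatives. Pias1, an inhibitor of STAT activity, had -0.16 (SE 0.05, edgeR adjusted p = 0.0287) and Ptpn2, a phosphatase that acts on JAKs and STATs, -0.16 (SE 0.05, edgeR adjusted p = 0.0298). Both calls were lost with the block (adjusted p = 0.0820 and 0.0709). That of Pias1 was also lost without knock-out day 7 library 3, knock-out naive library 3, knock-in day 7 library 2, knock-in naive library 1, wild-type day 7 libraries 1 and 5 or wild-type naive library 4 (0.0510 to 0.0693). That of Ptpn2 was lost without knock-out day 7 library 1, knock-out naive libraries 2 and 4, knock-in day 7 libraries 1 and 2, knock-in naive library 4, wild-type day 7 libraries 3 and 5 or wild-type naive library 1 (0.0513 to 0.0681).

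Of 18 genes listed as STAT3-related targets in T cells, 16 were tested. At day 7, 4 were called as higher in knock-out, 6 in knock-in and 5 in wild-type cells, with none lower. Of all genes, 0.211%, 1.01% and 1.18% were called as higher in these comparisons. Over the mean of the 3 genotypes 12 of the 16 were called as higher, against 6.16% of all genes. Socs3, Il21 and Il23r are also in the lists above. The median log2 fold change of the tested genes was 0.55, 1.26 and 0.89, against medians over all genes of 0.00, 0.01 and 0.00. The list was chosen with earlier results of these data known, so the shares of all genes are no independent yardstick for it. Genes that passed the count filter only through their day 7 libraries also had to be higher there. These counts and medians are thus a description and not a test of STAT3 targets as a set. Il17a, the Th17 cytokine, had 3 counts in all 25 libraries and was not tested. Junb, Fos, Pim1 and Socs3 were called in all 3 genotypes. Junb and Fos encode AP-1 subunits that many stimuli induce besides STAT3, and Pim1 encodes a survival kinase.

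Junb averaged 87.2 ± 10.9 CPM in knock-out cells at day 7 and 37.8 ± 3.05 CPM in knock-out naive cells, 123 ± 5.38 CPM in knock-in cells at day 7 and 48.6 ± 7.76 CPM in knock-in naive cells, and 120.3 ± 20.4 CPM in wild-type cells at day 7 and 30.2 ± 1.29 CPM in wild-type naive cells. Its log2 fold changes were 1.21 (SE 0.11), 1.34 (SE 0.11) and 1.99 (SE 0.12). Fos was the most variable, with 25.7 to 105 CPM in knock-out, 46.9 to 109 CPM in knock-in and 27.1 to 119 CPM in wild-type libraries at day 7, against 2.13 to 4.59, 4.38 to 13.1 and 1.53 to 4.02 CPM in the naive libraries of each. Pim1 had log2 fold changes of 0.64 (SE 0.13), 1.18 (SE 0.14) and 0.80 (SE 0.13). The knock-out call of Pim1 was lost without knock-out day 7 library 1 or 3 or knock-out naive library 2 or 3, with adjusted p-values of 0.0719 to 0.0863, and in limma voom (adjusted p = 0.0717), which did not call Fos in knock-out cells either.

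The further calls in this list were Mcl1 in wild-type cells (0.26, SE 0.07) and Bcl3 (0.98, SE 0.22) and Maf (1.53, SE 0.37) in knock-in cells. Each was lost without single libraries. For Mcl1, an anti-apoptotic gene, these were wild-type day 7 libraries 2, 3 and 5 and wild-type naive libraries 1, 3 and 4 (adjusted p 0.0524 to 0.123). For Bcl3, a nuclear partner of NF-kappa-B, they were knock-in day 7 libraries 1 and 4 and knock-in naive libraries 1 and 3 (0.0561 to 0.0845), and for Maf, a transcription factor of helper subsets, knock-in day 7 library 1 and knock-in naive libraries 1, 3 and 4 (0.0794 to 0.285; 0.95 on the log2 scale without the first).

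Against wild-type 1 gene of these lists was called, Junb in knock-in against wild-type naive cells, where 0.0136% of all genes were called. Junb had 48.6 ± 7.76 CPM and 30.2 ± 1.29 CPM (log2 fold change 0.68, SE 0.12, edgeR adjusted p = 0.0345). This call was lost without any of 7 single libraries, namely knock-in naive libraries 1, 2 and 4 and wild-type naive libraries 1 to 4, with adjusted p-values of 0.0942 to 0.343. In knock-out against knock-in cells at day 7, where 0.374% of all genes were called, Junb was again the 1 call of these lists. It had 87.2 ± 10.9 CPM and 123 ± 5.38 CPM (log2 fold change -0.49, SE 0.11, edgeR adjusted p = 0.0354). The call was lost without any of 7 libraries, knock-out day 7 libraries 1, 2 and 4 and knock-in day 7 libraries 1 to 4 (0.0589 to 0.121).

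**Figure D5:**
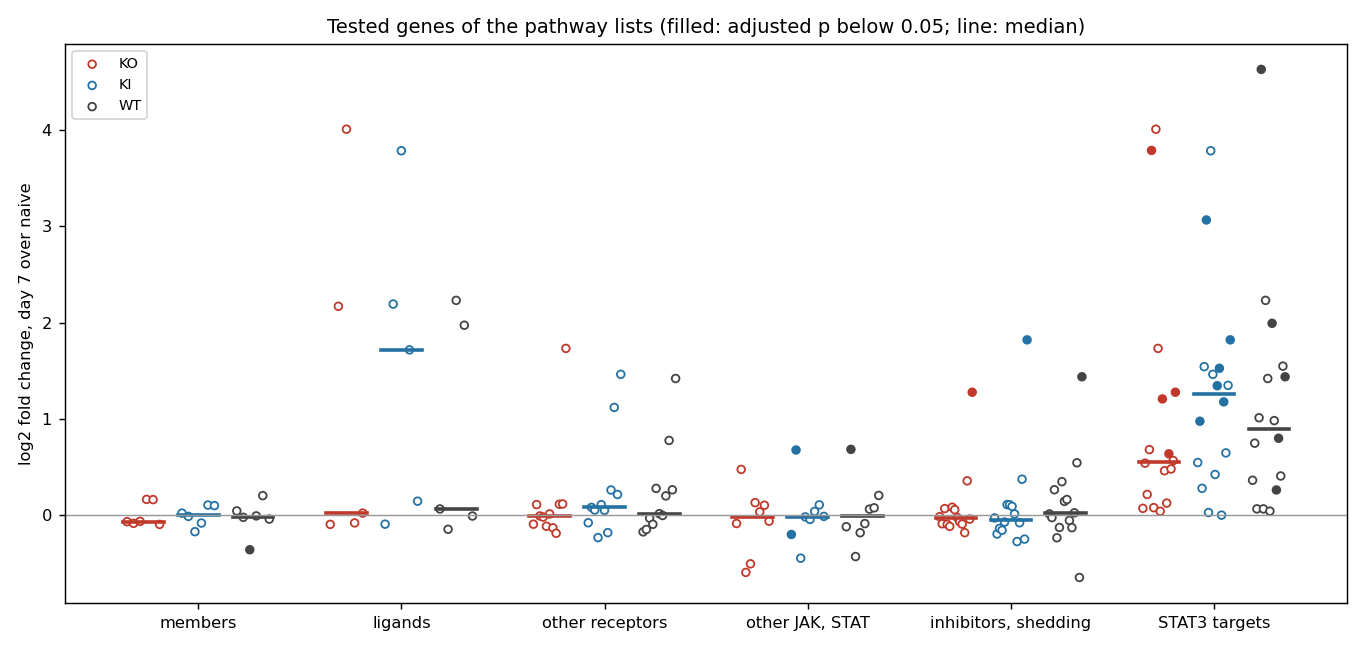
Log2 fold change at day 7 against naive of the tested genes of each pathway list, in knock-out, knock-in and wild-type cells; filled points were called and the line is the list's median. The STAT3-related genes lie above 0 in each genotype (medians 0.55, 1.26 and 0.89), the ligand and receptor lists hold no call, and the inhibitor list holds Socs3 in each genotype. The lists were chosen with earlier results of these data known.

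Genes whose levels followed each member most closely over the 25 libraries were ranked by Pearson's r on log2 CPM among 10853 genes. For Il6st these were Neurl3 (r = 0.82), Clec2d (0.81), Fchsd2 (0.78), Rapgef6 (0.78) and Sardh (0.77, at a mean of only 1.49 CPM). After removal of the group means the same r were 0.53, 0.65, 0.52, 0.58 and 0.66, so part of the likeness came from the groups. Il6ra was followed by Slc17a9 (0.83), Slc41a3 (0.77) and Rap2b (0.75), and Il27ra by Dvl3 (0.81), Mnt (0.77) and Rai1 (0.76). Stat3 was followed by Ndrg3 (0.79), Bcl3 (0.78) and Map3k5 (0.76), Jak2 by Celf2 (0.75), Trip12 (0.70) and Ikzf2 (0.67), and Tyk2 by Elmod3 (0.71), Mtch1 (0.68) and Plekhg3 (0.68, at a mean of only 1.39 CPM). The points of each r share library and depth. These genes were picked as the highest of 10853, and how high the best r would be among unrelated genes was not computed. The values are thus a description.

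Among the 6 members themselves the strongest correlations over the 25 libraries were those of Il27ra with Jak2 (r = -0.51), Il6ra with Il27ra (0.46) and Il6st with Stat3 (-0.45). Without the group means these were -0.64, 0.45 and -0.30. Il6st and Il6ra, the 2 chains of the interleukin-6 receptor, had an r of 0.14, and 0.05 within groups.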

How the data were processed

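The authors deposited raw counts per Ensembl gene for 25 libraries of total RNA, in 1 table with 46078 genes. Per the labels' protocols, RNA of sorted CD4 T cells was prepared with a miRNeasy kit, and stranded SMARTer Pico libraries were read from both ends on a NovaSeq instrument. The submitters' processing notes name mm10 and DESeq2; aligner, counter, strand setting and annotation are not given in the sources used here. Symbols, positions and exon lengths came from GENCODE M21, which named 45143 IDs.

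The filterByExpr function of edgeR, given the 6 groups, a minimum count of 10 and a minimum total of 15, left 14703 genes. After TMM scaling, the quasi-likelihood model of edgeR (glmQLFit, glmQLFTest) was fitted to the counts of the 25 libraries with a mean for each group and without covariates. The 12 comparisons were adjusted by Benjamini-Hochberg over all genes tested, two-sided, at 0.05. Standard errors are the log2 fold change over the square root of F. CPM use TMM-scaled totals, and values are mean ± SD. Libraries are numbered within a group in accession order, which pairs nothing. No pair of libraries of 1 group agreed within sampling noise.

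The members and lists were chosen with earlier results of these data known. Named list genes are up to 4 called members of a list with the smallest p or, if none was called, up to 2 with the highest mean; other genes of small counts were named after their values were seen, and 1 list gene is not reported here. Alternatives changed the scaling (RLE factors), the tool (DESeq2; voom of limma with quality weights), the filter (none; 5 CPM in 4 or more libraries), the libraries in the model (the compared groups alone; each library left out), the genes (without mitochondrial, ribosomal RNA and haemoglobin ones) or the design (library number as covariate; sets of 4 consecutive numbers as block). For list genes they were added after the data were seen. The procedure was tested on simulated data. Models ran in R 4.3.3 (limma 3.58.1, edgeR 4.0.16, DESeq2 1.42.0), and tables and plots in Python 3.11.15 (matplotlib 3.10.9, pandas 2.3.3).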

Additional observations from a re-analysis of the deposited data

Results flagged for a closer look

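In 3 of the 36 groups of libraries of a member, 1 library lay far from the rest, meaning that its gap to the nearest other library was more of the group's range than Dixon's 95% critical value allows. Chance gives about 1 in 20 such groups. Stat3 had 233.0 CPM in knock-out day 7 library 3, which was also the deepest library, against 193 to 197 CPM in the other 3. Without it the day 7 log2 fold change of Stat3 in knock-out cells was 0.10 (edgeR adjusted p = 0.771). Jak2 had 129.8 CPM in wild-type naive library 4, and without it the wild-type day 7 log2 fold change was 0.05 (adjusted p = 0.878). Tyk2 had 63.1 CPM in knock-out day 7 library 2, and without it the knock-out day 7 log2 fold change was -0.12 (adjusted p = 0.514).

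Over all 66 groups checked, the marker lists included, 6 held such a library. The summed B cell markers were 139.4 CPM in knock-out day 7 library 4, those of CD8, NK and gamma delta cells 26.3 CPM in knock-in naive library 3, and those of erythroid cells 4.06 CPM in wild-type day 7 library 4.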

How the results depend on the processing

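Il6st kept its direction and its call in wild-type cells at day 7 and over the mean of the 3 genotypes in all 18 and all 33 alternatives. Stat3 over the mean is the exception among the calls: its value was 0.16 with the block (adjusted p = 0.0722), so 1 member of 6 was called there instead of 2, and with single libraries left out it was 0.14 to 0.18, with 1 to 2 members called. limma voom called 1 member in knock-in day 7 against naive (Il6st, -0.16) and 1 in knock-out against knock-in naive (Il6st, -0.21); the cause was not tested. Of the fold changes of members under the alternatives 1340 kept direction and side of the threshold, 13 lost and 2 gained a call, and 91 changed sign, all of them values near 0 that were not called. The values of the changed sign follow, on the log2 scale. With voom the values were -0.00790 for Il27ra in the mean of day 7 against naive, -0.0124 for Il6ra in the knock-in interaction, -0.0234 for Il6ra in knock-out against wild-type day 7, 0.0316 for Jak2 in wild-type day 7 against naive, 0.00725 for Stat3 in knock-in against wild-type day 7, 0.00258 for Tyk2 in the mean of day 7 against naive. With no filter the values were -0.00449 for Il27ra in the mean of day 7 against naive, -0.000569 for Il6ra in the knock-in interaction. With library number the values were -0.00215 for Il27ra in the mean of day 7 against naive, -0.0239 for Il6st in knock-in against wild-type naive, -0.0139 for Tyk2 in knock-in against wild-type naive. With the block the values were -0.00199 for Il27ra in the mean of day 7 against naive, 0.0258 for Il6ra in knock-out against knock-in day 7, -0.00606 for Il6st in knock-in against wild-type naive, 0.0129 for Jak2 in knock-out against knock-in naive, -0.0114 for Tyk2 in knock-in against wild-type naive. With the stricter filter the values were 0.00583 for Il6ra in knock-in day 7 against naive, -0.00274 for Il6st in knock-in against wild-type naive, 0.00444 for Jak2 in wild-type day 7 against naive, -0.00177 for Tyk2 in knock-in against wild-type naive, 0.000438 for Tyk2 in the mean of day 7 against naive. With RLE the value was -0.00106 for Il6st in knock-in against wild-type naive. With DESeq2 the values were -0.00117 for Il6st in knock-in against wild-type naive, -0.00458 for Tyk2 in knock-in against wild-type naive. With only the groups compared the values were -0.000303 for Il6st in knock-in against wild-type naive, -0.00186 for Tyk2 in knock-in against wild-type naive. With no mitochondrial genes the value was 0.00334 for Jak2 in wild-type day 7 against naive. With single libraries left out the ranges that spanned 0 were -0.0609 to 0.0288 for Il27ra in the knock-in interaction, -0.00937 to 0.0738 for Il27ra in knock-in day 7 against naive, -0.0726 to 0.0171 for Il27ra in knock-in against wild-type naive, -0.000204 to 0.0643 for Il27ra in knock-out against knock-in day 7, -0.0486 to 0.0131 for Il27ra in knock-out against wild-type day 7, -0.00971 to 0.0171 for Il27ra in the mean of day 7 against naive, -0.0261 to 0.0336 for Il6ra in the knock-in interaction, -0.0412 to 0.0125 for Il6ra in knock-in day 7 against naive, -0.0651 to 0.0287 for Il6ra in knock-out against knock-in day 7, -0.0211 to 0.0649 for Il6ra in knock-out against wild-type day 7, -0.0413 to 0.00683 for Il6ra in wild-type day 7 against naive, -0.0398 to 0.0248 for Il6st in knock-in against wild-type naive, -0.0460 to 0.0344 for Jak2 in knock-in against wild-type naive, -0.0398 to 0.0514 for Jak2 in wild-type day 7 against naive, -0.11 to 0.0187 for Stat3 in the knock-out interaction, -0.0883 to 0.0258 for Stat3 in knock-in against wild-type day 7, -0.11 to 0.0144 for Stat3 in knock-out against knock-in day 7, -0.0697 to 0.0232 for Stat3 in knock-out against wild-type naive, -0.11 to 0.00707 for Tyk2 in the knock-out interaction, -0.0599 to 0.0471 for Tyk2 in knock-in against wild-type naive, -0.0173 to 0.0399 for Tyk2 in knock-out against wild-type day 7, -0.0332 to 0.00714 for Tyk2 in the mean of day 7 against naive, -0.10 to 0.00543 for Tyk2 in wild-type day 7 against naive. The called list genes kept their direction throughout. Mcl1 in wild-type cells was lost with the block (0.25, adjusted p = 0.0894), and Maf in knock-in cells with only the groups compared (1.53, adjusted p = 0.0692) and with the block (1.39, adjusted p = 0.0617). Junb in knock-in against wild-type naive cells was lost with voom, library number and the block (adjusted p 0.0833, 0.224 and 0.0923), and in knock-out against knock-in cells at day 7 with only the groups compared (0.160).

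Over all genes, the wild-type day 7 comparison gave 315 calls, against 498 with DESeq2, 516 with voom, 894 with no filter and 166 with the block. That of knock-out cells gave 60, against 16 with voom, 34 with only the groups compared and 540 with no filter, the most; that of knock-in cells gave 297, against 491, 720 and 890 with DESeq2, voom and no filter. Knock-out against wild-type gave 3 calls in naive cells and 7 at day 7, against 15 and 82 with DESeq2 and 147 and 349 with no filter. At day 7 it was 1 with only the groups compared. Over the settings that kept all libraries, knock-in against wild-type gave 0 to 59 calls in naive cells and 0 to 96 at day 7, and knock-out against knock-in 24 to 269 and 1 to 404, the most always with no filter. With no filter the SEs of Fos and Socs3 in wild-type cells at day 7 were 0.152 and 0.093, against 0.569 and 0.241. Those of Pias1 and Ptpn2 over the mean were 0.052 and 0.056, against 0.048 and 0.050. Calls with no filter thus rest on another estimate of the spread, and their number is not comparable. No value with only the groups compared exists for the mean, which uses all 6 groups. No paired analysis was possible because the labels give no replicate numbers that groups share. Every member had at least 330 counts per library, and with 4 or 5 libraries a group their number limits the precision.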
